A study of Drosophila melanogaster with 6 samples.

Results

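The peaks described here are the autosomal distal HMR peaks that were found in Drosophila S2 cells both before and after copper induction of HMR. HMR (Hybrid male rescue) is a rapidly evolving chromatin protein that forms a complex with LHR, sits at heterochromatin and telomeres, and takes part in the hybrid lethality between D. melanogaster and D. simulans. SL2 (S2) cells, a line from late D. melanogaster embryos, were stably transfected with HMR-FLAG-HA under pMT, a metallothionein promoter that copper switches on. The study's methods also name a Myc-LHR transgene. The induced cells received 250 uM CuSO4 for 20 to 24 h and gave 2 ChIP libraries made with an anti-HMR antibody and 2 input libraries, whereas the uninduced cells carried the same transgene without copper and gave 1 ChIP and 1 input library. Whether the cells are 1 clone is not given in the sources used here. Each condition has 1 peak list of positions without height or score, so no difference below has a replicate error and none was tested. Copper and the transgene product changed together and cannot be told apart.

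A peak belonged to the group when it lay on 2L, 2R, 3L or 3R, overlapped a peak of the uninduced list by 1 bp or more, and had its centre more than 250 bp from every annotated transcript start. Members were thus chosen by their positions in both lists, and their number is a description. Of the 1981 peaks in the induced list, 414 met the rule, among 848 autosomal peaks shared by both conditions. The other 434 shared peaks lay at promoters. Each of the 414 paired with a single uninduced peak, an overlap that the rule required. Of these pairs, 389 overlapped reciprocally by 50% or more. Whether both peaks of a pair mark the same binding site was not tested. For comparison, 352 autosomal distal peaks were found only after induction and 134 only without it. Near the limits of the rule, the members closest to a start lay 253 bp from achi, 256 bp from CG10139 and 257 bp from mei-W68, and the shared peaks just left out lay 249 bp from capu, 249 bp from cnc and 247 bp from Sf3a1. The smallest overlaps between the lists were 17, 21 and 27 bp, and the nearest distal peaks left out for want of overlap had gaps of 69, 73 and 111 bp.

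Insulators are DNA elements that limit the reach of enhancers and separate chromatin domains. In flies they are bound by several DNA-binding proteins. Su(Hw), a zinc finger protein, is best known from the insulator inside the gypsy retrotransposon, CTCF is known at domain borders of the bithorax complex, BEAF-32 sits mostly near promoters of housekeeping genes, and GAGA factor binds GA repeats and also acts at insulators. DRE and Motif 1 are core promoter elements of housekeeping genes. Each protein was represented by short letters searched on both strands of the 200 bp peak. The letters were TGCATAC for Su(Hw), then AGNTGGCGC for CTCF, at least 2 copies of CGATA for BEAF-32, one of GAGAGAG for GAGA factor, one of TATCGATA for DRE and one of GGTCACACT for Motif 1. The DRE letters contain the BEAF-32 core on both strands, so every peak with a DRE match also passed the BEAF-32 rule. A match describes the letters and does not show that the protein was bound.

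The sequences below, from the Release 6 (dm6) reference on the plus strand, show members with the letters that recurred most. They are the first 3 members in line order of the induced list with a Su(Hw) match on the arms whose sequence is shown, the first of those with exactly 2 matches, the first with both CTCF and Su(Hw), the first with CTCF, and a member with the related letters described later. Capitals mark the Su(Hw) letters TGCATAC or their reverse complement GTATGCA, the CTCF letters, or, for the intron of CG33158, the related letters.
chr3R:31458155-31458354, between Gprk2 and Loxl1: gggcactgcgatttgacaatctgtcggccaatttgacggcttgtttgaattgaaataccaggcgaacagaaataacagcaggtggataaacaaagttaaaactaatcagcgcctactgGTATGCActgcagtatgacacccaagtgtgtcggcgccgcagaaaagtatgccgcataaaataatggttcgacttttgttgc
chr3L:28091247-28091446, beyond l(3)80Fj: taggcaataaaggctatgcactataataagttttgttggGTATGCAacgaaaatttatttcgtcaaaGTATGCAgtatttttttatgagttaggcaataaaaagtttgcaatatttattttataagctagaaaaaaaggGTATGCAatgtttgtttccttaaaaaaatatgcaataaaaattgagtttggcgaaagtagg
chr3R:23331367-23331566, intron of pnt: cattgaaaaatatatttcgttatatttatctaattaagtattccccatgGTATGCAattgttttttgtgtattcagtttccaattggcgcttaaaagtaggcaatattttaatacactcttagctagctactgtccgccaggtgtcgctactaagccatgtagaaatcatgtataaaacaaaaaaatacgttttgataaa
chr3L:4840650-4840849, between CG13707 and CG32237: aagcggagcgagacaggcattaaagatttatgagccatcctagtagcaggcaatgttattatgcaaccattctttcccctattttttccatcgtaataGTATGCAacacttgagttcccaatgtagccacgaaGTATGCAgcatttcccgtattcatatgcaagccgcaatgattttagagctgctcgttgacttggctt
chr2L:4345725-4345924, between Atet and CG15429: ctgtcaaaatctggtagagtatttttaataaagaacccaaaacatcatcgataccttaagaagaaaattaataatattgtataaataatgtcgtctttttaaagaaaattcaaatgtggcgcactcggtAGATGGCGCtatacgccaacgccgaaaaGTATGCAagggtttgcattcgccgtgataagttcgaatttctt
chr3L:505728-505927, intron of klar: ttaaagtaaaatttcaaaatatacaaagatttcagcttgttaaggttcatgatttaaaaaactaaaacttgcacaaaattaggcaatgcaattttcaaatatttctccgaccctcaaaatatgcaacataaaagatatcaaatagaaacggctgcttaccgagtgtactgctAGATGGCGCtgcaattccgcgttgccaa
chr3L:16470143-16470342, intron of CG33158: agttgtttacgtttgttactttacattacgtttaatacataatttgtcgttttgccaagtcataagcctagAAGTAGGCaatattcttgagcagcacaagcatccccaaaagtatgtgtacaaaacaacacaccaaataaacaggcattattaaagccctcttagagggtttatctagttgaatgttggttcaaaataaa

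Among the members, Su(Hw) letters were the most frequent of the insulator-type motifs. They stood in 94 of the 414 members, 22.7% (Wilson 95% interval 18.9 to 27.0, which covers counting error only, here and below). As background, the same letters occurred in 2.66% of 502595 non-overlapping 200 bp windows of the 4 arms whose centres passed the same distance rule (distal windows), so the share in members was 8.54 times that of these windows. CTCF letters stood in 20 members, 4.83% (3.15 to 7.34) against 0.562% of the windows, a ratio of 8.60. With 400 bp searched in place of 200 bp, the ratios were 5.01 for Su(Hw) and 5.75 for CTCF. The members thus held both sets of letters at shares well above the background. Their BEAF-32 share was 4.35% (18 members, 2.77 to 6.77) against 3.06% of the windows, an interval that includes the background. GAGA letters occurred in 8 members (1.93%, 0.982 to 3.77) against 2.21%, also within the interval. With the shorter letters GAGAG the members stood below the background, at 12.6% (9.71 to 16.1) against 21.3%.

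The core promoter letters stood in few of these distal peaks. DRE occurred in 5 members (1.21%, 0.517 to 2.80) against 0.367% of the windows, a ratio of 3.29 with the background below the interval. Motif 1 occurred in 1 member (0.242%, 0.0427 to 1.36) against 0.078%, within it. The 5 members with DRE letters also passed the BEAF-32 rule and so count among the insulator-type motifs below. In all, 134 members (32.4%, 28.0 to 37.0) held at least 1 insulator-type motif, against 8.26% of the windows, while 279 (67.4%) held none of the 6 motifs. Shared promoter peaks (27.4%, 23.4 to 31.8) and induced-only distal peaks (26.1%, 21.8 to 31.0) held at least 1 with overlapping intervals, and uninduced-only distal peaks stood at 11.2% (6.90 to 17.6). The first 3 classes were therefore not separated by this count. Combinations were few. Only 6 members held more than one kind of insulator-type motif, 5 of them Su(Hw) with CTCF, and 13 members held 2 or more Su(Hw) matches.

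**Figure D1:**
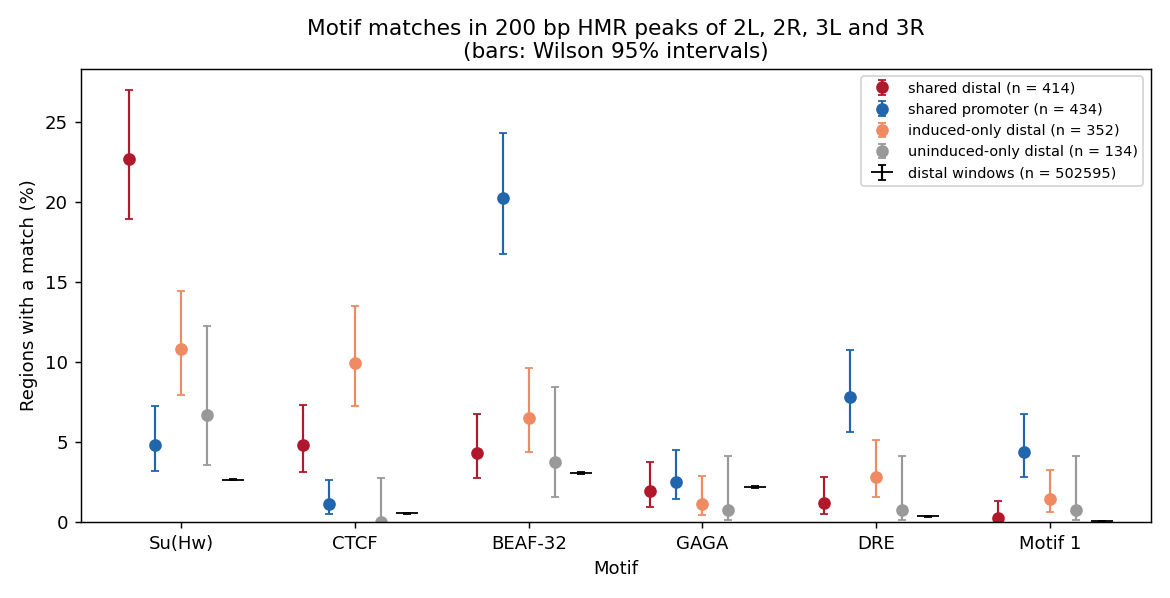
Share of regions (y axis, %) with a match to each motif (x axis) in the 414 shared distal peaks, the other 3 classes of autosomal peaks and the distal windows, with Wilson 95% intervals as bars. Su(Hw) stands at 22.7% in shared distal peaks and BEAF-32 at 20.3% in shared promoter peaks.

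The motif content of the members was set beside that of the other autosomal peaks, which the rule separates by position and overlap but not by sequence. Su(Hw) letters stood in 4.84% of the shared promoter peaks (3.19 to 7.28), in 10.8% of the induced-only distal peaks (7.97 to 14.5) and in 6.72% of the uninduced-only distal peaks (3.57 to 12.3). None of these intervals reached the interval of the members, so the shared distal class had the highest share of the 4. Induced-only distal peaks stood later in the induced list (median line 1145.5 against 623.5). The Su(Hw) share of the members fell along that list, as given below. The part of list position in this contrast was not tested. BEAF-32 showed the opposite order with respect to promoters, with 20.3% of the shared promoter peaks (16.8 to 24.3) against 4.35% of the members. Its background was also higher there, at 7.62% of windows within 250 bp of a start against 3.06% of the distal windows. The BEAF-32 counts include every peak with DRE letters, 34 of the shared promoter peaks and 5 of the members. CTCF differed again, since the induced-only distal peaks held it in 9.94% (7.24 to 13.5), above the 4.83% of the members, with intervals that just overlap. None of the 134 uninduced-only distal peaks had a CTCF match, with an upper Wilson bound of 2.79%.

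The Su(Hw) share was similar within the members' own subdivisions. It was 25% of the 212 intergenic members (19.7 to 31.2) and 20.4% of the 162 intronic members (14.9 to 27.2), against 2.86% and 2.99% of the intergenic and intronic windows. By distance it was 24.0% within 1000 bp of a start, 20.3% from there to 5000 bp and 25.2% beyond 5000 bp. By arm it ran from 17.7% on 3L (12 to 25.4) to 28.7% on 2R (20.8 to 38.2). All of these intervals overlap, so position and distance did not separate members with and without the letters beyond counting error.

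Base composition was examined since the members were poorer in G and C than the genome, with a median GC content of 38% against 42% in the distal windows. Within windows and members under 35% GC, Su(Hw) letters stood in 26.8% of the 157 members (20.4 to 34.2) and 3.12% of the windows. At 45% GC or more they stood in 14.1% of 85 members (8.26 to 23.1) and 1.95% of the windows. The difference in Su(Hw) letters between members and windows was thus present at low and at high GC content. CTCF letters stood in 3.82% of the members under 35% GC (1.76 to 8.09) against 0.152% of the windows. At 45% GC or more they stood in 2 of 85 members (2.35%, 0.648 to 8.18) against 0.947%, an interval that includes the background.

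To look for sequence that the preset letters miss, all 7-letter words present in at least 5% of the members were ranked by their ratio to the windows. There were 710 such words. The first was GCATACT, in 124 members (30.0%, 25.7 to 34.5) against 1.86% of the windows, 16.1 times the background. The next was CATACTT, in 132 members (31.9%) at 11.8 times, followed by the Su(Hw) letters TGCATAC themselves. All 3 words overlap one another, so they describe one longer stretch of letters. The fourth word, GCCTACT, was in 31 members (7.49%) at 7.17 times, and it differs from the first in a single letter. Others of the 10 highest words, such as AGCATAC and ATACTTT, overlap the same stretch.

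From the words, and so after their values were seen, the letters GCNTACTT were written down, in which N is any base. They stood in 144 members (34.8%, 30.4 to 39.5) against 2.25% of the windows. By form, GCATACTT was in 120 members, GCCTACTT in 27, GCTTACTT in 6 and GCGTACTT in 2. Most members with the letters thus had one of the first 2 forms. GCCTACTT alone stood in 6.52% of the members (4.52 to 9.32) against 0.429% of the windows and 0.922% of the shared promoter peaks. The member in the intron of CG33158, printed above, carries this form as its reverse complement AAGTAGGC. GCTTACTT stood in 1.45% (0.666 to 3.13) against 0.604% of the windows, just outside the interval, and GCGTACTT in 0.483% (0.133 to 1.74) against 0.339%, within it.

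Counting either set of letters, 155 members (37.4%, 32.9 to 42.2) held Su(Hw) letters or the longer letters, against 4.46% of the windows. Both sets occurred together in 83 members. A repeat of the longer letters within one peak was found in 26 members (6.28%, 4.32 to 9.04) against 0.0430% of the windows. Of the 279 members without any of the 6 motifs, 53 (19.0%) held the longer letters. In the other peak classes the longer letters stood in 8.29% of shared promoter peaks, 17.3% of induced-only distal peaks and 7.46% of uninduced-only distal peaks. Each of these shares was below the interval of the members. The longer letters were chosen from words ranked in the members. Their excess in members over other sequence, here and below, was thus partly fixed in advance.

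The bases next to the Su(Hw) letters also differed from those in the genome. With the letters read as TGCATAC, the base just after them was T in 75.4% of the 118 matches in members and the next was T in 83.1%, against 30.2% and 38.8% of the 13807 matches in distal windows. The base just before them was T in 72.0% against 40.7%. The position before that was A or G more often than in the windows, with A in 41.5% and G in 40.7% of the matches, against 27.7% and 18.8%. A T-rich run after the core was therefore shared by most matches in members, although the search did not ask for it. The 40 matches in induced-only distal peaks had T at 77.5% and 87.5% of the same positions after the core, and the 22 in shared promoter peaks at 68.2% of both, so the run was not particular to the members.

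Matches were concentrated at the centre of the peaks, a property that the rule did not use. Of the 118 Su(Hw) matches in members, 80 (67.8%, 58.9 to 75.6) lay within 50 bp of the centre, where an even spread would put 51.5%. Their density was 1.93 per kb within 50 bp of the centre and 0.133 per kb at 500 to 1000 bp. The longer letters fell in the same way, from 2.87 to 0.116 per kb. Centring was also seen in shared promoter peaks, with 77.3% of the Su(Hw) matches within 50 bp (56.6 to 89.9). In induced-only distal peaks the share was 70% (54.6 to 81.9), so centring was not particular to the members. Of the 10 matches in uninduced-only distal peaks, 5 lay within 50 bp (50%, 23.7 to 76.3), an interval that includes an even spread. CTCF letters were also denser in the members' centres, at 0.314 per kb against 0.0290 per kb at 500 to 1000 bp. Inside the 200 bp peak, 13 of 24 CTCF matches (54.2%, 35.1 to 72.1) lay within 50 bp, an interval that includes an even spread. BEAF-32 cores differed less, with 1.5 per kb at the centre of members and 1.28 per kb in the flanks, while shared promoter peaks had 3.16 and 1.32 per kb.

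**Figure D2:**
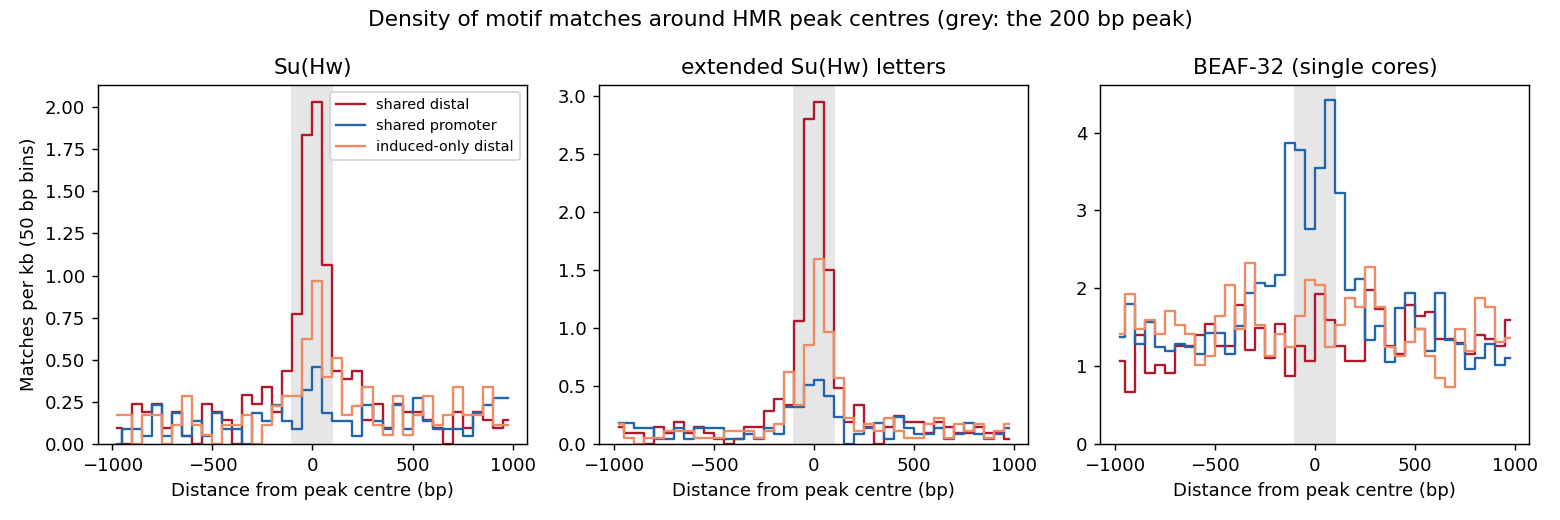
Density of matches (matches per kb in 50 bp bins, y axis) against the distance from the peak centre in bp (x axis) for Su(Hw), the longer letters and single BEAF-32 cores, with the 200 bp peak in grey. Within 50 bp of the centre the shared distal peaks reached 1.93 Su(Hw) matches per kb and 2.87 of the longer letters, and the shared promoter peaks 3.16 BEAF-32 cores per kb.

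Individual members show how these letters were arranged. The peak that stands first in both lists, at 1243453 to 1243652 on 2R, held 6 Su(Hw) matches. It is intergenic, 20588 bp from CG40191 and 117625 bp from rl, the fly ERK kinase gene, and its uninduced counterpart was displaced by 83 bp. The second line of both lists is the peak between Gprk2, a G protein-coupled receptor kinase, and Loxl1, a lysyl oxidase, whose facing 3′ ends lie 381 and 126 bp away. The member at line 3 (induced) and line 5 (uninduced) has 3 matches and lies beyond l(3)80Fj at the proximal end of 3L, 78747 bp from the nearest start. A further member with 4 matches lay in the same end of the arm, at 26139546 to 26139745 (lines 82 and 353). Together with a gypsy copy described below, these were all of the members with 3 or more Su(Hw) matches.

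Others of the first Su(Hw) members lay in introns or beside genes. The pnt gene encodes an ETS transcription factor of receptor tyrosine kinase signalling, and its intronic member with a match stood at lines 14 and 10 of the induced and uninduced lists, the order used below. Glut1, a sugar transporter gene, held one at lines 24 and 7. Other early members with matches lay 641 bp from the start of CG13707 (lines 26 and 14, 2 matches), between Vha14-2 and CG31559 (lines 45 and 100, 2 matches) and 1231 bp from Eglp2 (lines 80 and 182, 2 matches). Not all leading members had the letters. The peak between dock and drongo (lines 6 and 163), the one in the 3′ UTR of Pdp1 (lines 13 and 152) and the one beside Cpr62Bc (lines 16 and 19) had none of the 6 motifs. The peak near CG12617 at lines 9 and 119 had a single BEAF-32 core and the smallest overlap of all members, 17 bp.

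The 6 members with more than one kind of insulator-type motif were spread over the list. Su(Hw) and CTCF letters stood together between Atet and CG15429 (line 117), in an intron of toc (line 343), between CadN and CadN2, a pair of neighbouring N-cadherin genes (line 398), 377 bp from the forkhead gene bin (line 764) and 524 bp from Cyp12e1 (line 1063). The remaining one, in an intron of Mbs, a myosin phosphatase subunit gene, had a Su(Hw) match and 4 GAGA matches (line 577). Matches were counted at every start position, so GAGA matches can overlap within a single GA repeat. In the Atet member the centre was displaced by 96 bp between the lists, and in the Cyp12e1 member by 5 bp.

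The members lay between genes more often than the genome under the same distance rule. Their centres were intergenic in 212 of 414 cases (51.2%, 46.4 to 56.0) against 32% of the distal windows, intronic in 162 (39.1%, 34.5 to 43.9) against 43.7%, and in coding sequence in 5 (1.21%, 0.517 to 2.80) against 17.1%. Intergenic sequence was thus over-represented and coding sequence was almost absent. The remaining members lay in 3′ UTRs (20, 4.83%), 5′ UTRs (8, 1.93%) and noncoding exons (7, 1.69%), close to the window shares of 4.78%, 1.13% and 1.33%. The 5 coding members were in CG34462, tou, InR, CG45076 and scrib. InR encodes the insulin receptor and scrib a cell polarity protein.

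Compared with the unshared distal peaks, the members resembled the induced-only class more than the uninduced-only class in position. Of the induced-only distal peaks 56.0% were intergenic (50.7 to 61.1) and 33.2% intronic (28.5 to 38.3), with intervals that overlap those of the members. Of the uninduced-only distal peaks 27.6% were intergenic (20.7 to 35.7) and 66.4% intronic (58.1 to 73.9), and neither interval overlaps that of the members. Coding sequence held 1.42% of the induced-only (0.608 to 3.28) and 0% of the uninduced-only distal peaks (upper bound 2.79%). Its near absence was thus not particular to the members. Among the members themselves, 410 of 414 had the same annotated feature at the centre of the uninduced peak, and 4 uninduced counterparts had a centre within 250 bp of a start.

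**Figure D3:**
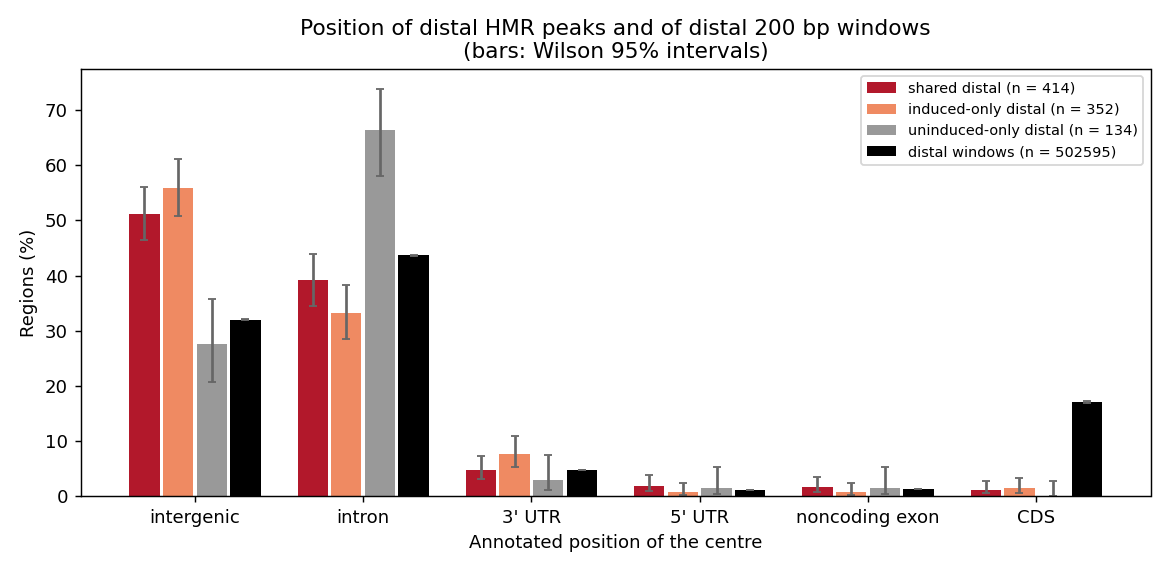
Share of regions (y axis, %) by the annotated feature at their centre (x axis) for the 3 classes of autosomal distal peaks and the distal windows, with Wilson 95% intervals as bars. Shared distal peaks were intergenic in 51.2% and in coding sequence in 1.21%, against 32% and 17.1% of the windows.

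Although promoter peaks were left out, the members lay closer to transcript starts than the windows did. Their median distance from a transcript start was 1830.5 bp (quartiles 784 and 5116.75), against 3838 bp in the windows. The median was 1843.5 bp in induced-only and 1617.5 bp in uninduced-only distal peaks, so this nearness was not particular to the members. Of the members, 289 (69.8%) lay more than 1000 bp and 38 more than 10000 bp from any start. The 5 farthest were 159728 bp from Pzl, 103118 bp from CG42402, 82806 bp from the noncoding gene lncRNA:CR46075, 78747 bp from l(3)80Fj, the 3-match member shown above, and 77078 bp from IntS3.

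Under the 250 bp limit, the genes on either side of the intergenic members had no unusual orientation. They were convergent, with both 3′ ends facing the peak, for 51 of 212 members (24.1%, 18.8 to 30.2) against 22.3% of the intergenic windows, divergent for 46 (21.7%, 16.7 to 27.7) against 24.0%, and tandem for 114 (53.8%, 47.1 to 60.4) against 49.8%. All 3 intervals include the window shares. Shared promoter peaks with an intergenic centre were divergent in 71.8% of cases. Members with and without Su(Hw) letters did not separate, with convergent shares of 24.5% and 23.9%.

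The intronic members lay in long introns, as did the intronic windows. The median length of the intron was 13578 bp in members and 15153 bp in windows. Of the 159 members in introns of protein-coding genes, 47 (29.6%, 23.0 to 37.1) were in the first intron, against 31.2% of the windows sampled, so no preference for first introns was seen. Genes that held a member were correspondingly long, with a median of 34264 bp over 185 protein-coding genes against 2088 bp over all 11669 on the arms. A long gene offers more distal sequence to fall in, and the part of length in the gene counts below was not tested.

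The genes bun and sick held 3 members each. In bun, which encodes a TSC-22 family regulator of growth, all 3 were intronic (lines 362, 798 and 1215 of the induced list), and 2 of them lay in the same intron of 59108 bp. None of the 3 held an insulator-type motif, while a further member 280 bp from the gene had a Su(Hw) match. In sick, 2 were intronic and the third, in the 5′ UTR and 258 bp from a start, had a Su(Hw) match. A pair of members was held by each of CG44153, Mbs, PVRAP, Pdp1, Ptp61F, pnt, toc, tou and twi. Members were otherwise scattered. Their median distance to the nearest other member was 70332 bp, 37 had another within 10000 bp, and the only group of 3 so spaced lay on 3L from 1191608 to 1206948, in Trhn, beside mwh and in mwh, with a Su(Hw) match in 2 of the 3.

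The neighbouring genes were read against fixed lists of gene names. A flanking gene was the nearest protein-coding gene to one side, at any distance. Of all 11669 protein-coding genes of the arms, 568 (4.87%) held or flanked a member. Of the 8 homeotic genes, 5 did. The homeotic genes encode the transcription factors that set segment identity along the body. The members within pb, Antp and Abd-B were intronic, and those of Antp (lines 383 and 250) and Abd-B (lines 787 and 724) each had a CTCF match. The members flanking abd-A, 8487 bp away (lines 116 and 111), and lab, 5228 bp away (lines 1605 and 1165), each had a Su(Hw) match. The Antp site also lies within CG46458. In all, 4 of these 5 members carried an insulator-type motif, against 134 of all 414, and 5 are too few for a comparison.

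Other developmental regulators also held or flanked members. Of 53 transcription factor genes, 12 held or flanked one (22.6%). The genes ush, twi, pnr and pros held members, and srp, retn, knrl, dac, bin, hth, eya and gsb flanked them. The flanking distances ran from 174 bp for srp to 55359 bp for knrl and 70333 bp for hth. The gene twi, which encodes the mesoderm factor Twist, had members in introns at lines 166 and 1422, both with a Su(Hw) match. A member 174 bp from srp, the GATA factor gene of the blood lineage from which S2 cells are thought to derive, stood at lines 66 and 25 and had none of the insulator letters. In ush, whose product binds GATA factors, the member in the 5′ UTR had 2 CTCF matches (lines 124 and 216).

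Of 28 hemocyte and immune genes, 5 held or flanked a member (17.9%), with srp and ush counted here as well. The others were pnt, with members at lines 14 and 55 of the induced list, Pxn, a peroxidasin gene, and spz, which encodes the ligand of Toll. Of 63 adhesion and axon guidance genes, 9 did (14.3%). Members lay in introns of Sema1a, Ten-m and dpr2, and beside unc-5, Dscam1, CadN, CadN2, dpr17 and beat-IIb, among which those of Dscam1 and of the CadN pair had Su(Hw) matches. These lists hold many long genes, and length was not adjusted for.

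The genes of insulator and HMR proteins themselves were also examined. Of 16 insulator protein genes, 2 held a member (12.5%), su(Hw) in its 5′ UTR 428 bp from a start (lines 463 and 261) and pita in an intron (lines 867 and 773), neither with an insulator-type motif. None of the 17 genes for HMR partners and heterochromatin proteins on the arms held or flanked a member, nor did any of 13 heat shock genes. At an overall share of 4.87%, no difference from the other genes was detectable with lists this short.

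Transposable elements were overlapped by 14 members (3.38%, 2.02 to 5.60) against 6.86% of the distal windows, and in 5 the centre lay inside an element. One of these is a gypsy copy on 2R, at 5049217 to 5056682, in which the member at 5055634 to 5055833 (lines 61 and 88) held 6 Su(Hw) matches. The annotation nests this copy within accord2 and diver2 insertions. Gypsy carries the insulator through which Su(Hw) was first studied. A second gypsy fragment, on 3R at 4716023 to 4717451, was overlapped by a member at line 308 without a match. Reads were kept by the authors only where they mapped uniquely, and mappability of these elements was not analysed here. In stretches of 100 kb with at least 20% element cover there were 17 members (4.11%, 2.58 to 6.48) against 5.65% of the distal windows, which lies within the interval. The share was 12.4% in shared promoter peaks, 8.24% in induced-only and 3.73% in uninduced-only distal peaks. Among members outside such stretches, the Su(Hw) share was 23.4%. The measure rests on annotated elements alone and does not mark all sequence far from genes. The members at 1243453 on 2R and 28091247 on 3L, 20588 and 78747 bp from a start, counted as outside.

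By arm, 77 members lay on 2L, 101 on 2R, 124 on 3L and 112 on 3R. Per Mb these were 3.27, 3.99, 4.41 and 3.49, with the highest density on 3L. All of the 17 members in element-rich stretches lay on 2L, 2R and 3L, with 10 of them on 2R.

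The rule asked for an overlap of 200 bp peaks, so the distance between the centres of a member in both lists could not reach 200 bp, and it is given as a description. The median distance between both centres was 26.5 bp (95% interval from ranks 23 to 30, quartiles 11 and 51), against 28 bp in shared promoter peaks. In 165 members (39.9%) the centres lay within 20 bp, and in 25 (6.04%) they were more than 100 bp apart, up to 183 bp. Members with Su(Hw) letters had a median of 25 bp and those without 28.5 bp, with overlapping intervals. In the 89 members with a Su(Hw) match in the part covered by both peaks, the nearest match lay a median of 24.5 bp from the induced centre (19.5 to 32.5) and 32.5 bp from the uninduced centre (26.5 to 42.5). These intervals overlap, and in both lists 66 of the 89 lay within 50 bp of the centre. The match was nearer the induced centre in 51 and nearer the uninduced centre in 30. The induced condition has 2 ChIP libraries and the uninduced condition 1, and the part of that difference was not tested.

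The lists are not sorted by position, and the sources used here do not state what their order stands for. Members stood at a median line of 623.5 of 1981, the same as shared promoter peaks (623.5) and earlier than induced-only distal peaks (1145.5). They made up 38 of the first 100 induced lines, against 414 of 1981 over the whole list. Of the first 100 uninduced lines 30 were paired with a member, about the proportion of the whole list, 414 of 1424. Members with Su(Hw) letters stood at a median line of 453.5 and those without at 699.5. With the members divided by line into 5 parts of near equal size, the Su(Hw) share was 34.9% in the first part (25.6 to 45.7) and 14.6% in the last (8.57 to 23.9), intervals that do not overlap. The longer letters stood in 48.2% of the first part and 24.4% of the last. Even in the last part both shares were above the 2.66% and 2.25% of the windows. Their last-part intervals, 8.57 to 23.9 and 16.4 to 34.7, overlap those of all induced-only distal peaks, 7.97 to 14.5 and 13.7 to 21.6.

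**Figure D4:**
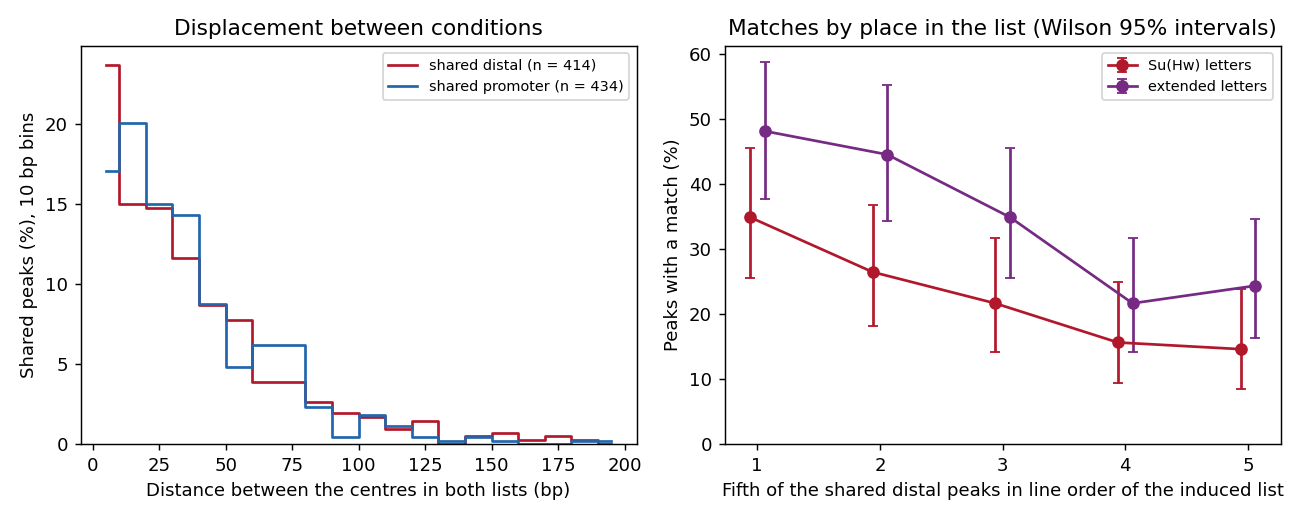
Left, share of shared peaks (y axis, %) by the distance in bp between their centres in both lists (x axis, 10 bp bins) for 414 distal and 434 promoter peaks. Right, share of members (y axis, %, Wilson 95% intervals as bars) with Su(Hw) letters or the longer letters in 5 parts by line order (x axis), from 34.9% to 14.6% and from 48.2% to 24.4%.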

How the data were processed

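HMR ChIP and input libraries of induced (2 and 2) and uninduced S2 cells (1 and 1), 6 in all, were sequenced by the authors. Per the study's methods and the submitters' processing notes, Bowtie2 2.2.9 aligned the reads to dm6, SAMtools 1.3.1 filtered them, and HOMER 4.9 called 200 bp peaks that exceeded input 2-fold. What the authors deposited are 2 lists of peak positions, without score or count. The depth is therefore unknown, and whether the 2 induced libraries were pooled is not stated. The condition of each list was read from how it is named.

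Overlaps, features, motif letters and words were derived with pandas 2.3.3, numpy 2.4.6 and scipy 1.17.1 under Python 3.11.15, and plots drawn with matplotlib 3.10.9. Annotation was Ensembl release 115 (35694 transcripts, 5896 transposable elements) and sequence was the Release 6 reference (RefSeq copy). Features were read at the peak centre. Intron values of windows used every 5th window. The procedure was tested on simulated peaks. Shares have Wilson 95% intervals, and no p-value was computed since peaks are not replicates.

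Members and gene lists were chosen with earlier results of these data known. Members named singly were the first 10 in line order (1 of them is not reported here), the first 10 with a Su(Hw) match, the extremes of the rule, those with several motifs, genes holding 3 or more, and listed genes. Other names in the text (the coding members, the pairs per gene, the group of 3, the element overlaps and the member with the longer letters) were chosen after their values were seen. Alternatives varied the overlap, the distance limit, the starts, the list used for positions, the letters, the searched width and the lines used.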

Additional observations from a re-analysis of the deposited data

How the results depend on the processing

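Of 111 alternative values, 91 stayed within 1 interval or spread of the value given above and 20 moved beyond it. Requiring a reciprocal overlap of 50% or starts of protein-coding genes only left the Su(Hw), CTCF, intron and intergenic shares in place. So did using only the first 990 lines of the induced list or removing element-rich stretches. Over the alternative sets of members, the ratio of members to windows ran from 8.14 to 9.44 for Su(Hw) and from 8.24 to 11 for CTCF. It ran from 1.17 to 1.46 for BEAF-32 and from 0.316 to 0.915 for GAGA. With a limit of 1000 bp from a start, GAGA letters stood in 0.692% of members and convergent genes flanked 30.5% of intergenic members. No window share of convergent genes at that limit is given here, so a change in the background cannot be told apart. Motif 1, with 1 member, fell to 0 under reciprocal overlap, under limits of 500 and 1000 bp and with the positions of the uninduced list. Other letters moved the shares of 4 motifs. For Su(Hw), TGCATA gave 32.9% of members against 12.6% of windows (ratio 2.60) and TTGCATACC 2.17% against 0.169% (12.9). For CTCF, AGNTGGC gave 13.0% against 11.7% (1.12). For BEAF-32, 1 or more CGATA gave 22.2% against 20.6% (1.08) and 3 or more 1.21% against 0.421% (2.87). For GAGA, GAGAG gave 12.6% against 21.3% (0.589). The shares for DRE (ATCGATA, 2.66%) and Motif 1 (GTCACACT, 0.725%) stayed within the interval, while the DRE ratio fell from 3.29 to 1.22. Within 400 bp, BEAF-32 stood at 11.6% against 9.44% of 400 bp windows and GAGA at 4.83% against 4.37%, and the ratios for Su(Hw) and CTCF fell to 5.01 and 5.75. Within 25 bp of the centre lay 41.5% of the Su(Hw) matches, the centre was inside an element in 1.21% of members, 15 listed genes held a member in place of 33 that held or flanked one, and the highest 6-letter word had a ratio of 5.08. After the data were seen, the induced lines after 990 were tried, with a Su(Hw) share of 16.8% of 119 members. The letters GCNTACTT, also tried then, gave 34.8%. No paired analysis was possible because no peak list carries a replicate number. Leaving out a replicate was not run because the 2 induced libraries have 1 list and the uninduced condition has 1 ChIP library. Without read counts, neither the depth nor the strength of a peak is known.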
